A study of Mus musculus with 2 samples.

Results

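The guanylate-binding protein genes Gbp2, Gbp3, Gbp4, Gbp5, Gbp6, Gbp7, Gbp8 and Gbp9 were followed as 8 of the 31053 genes of a single-cell RNA count matrix, chosen by name, together with the sum of their counts. Guanylate-binding proteins are large GTPases whose genes are switched on by interferons, above all by interferon gamma. In macrophages and many other cells of the mouse they gather on the vacuoles of intracellular parasites and on cytosolic bacteria, where they help to break membranes and to set off inflammasomes. Some of them carry a prenyl lipid anchor, and their placing on vacuoles in the mouse depends on proteins of the autophagy pathway that conjugate ATG8 homologues.

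The cells came from mice with EAE (autoimmune encephalomyelitis, a mouse model of multiple sclerosis), and from healthy mice. All were 10-week-old females of the strain labelled Wild-type C57BL/6J, and each group was 1 sample, pooled from 5 mice. The labels name the cells meningeal lymphatic endothelium near the cribriform plate, and the dissected tissue also took in olfactory bulb and nasal mucosa. The sort took Podoplanin+ CD31+ cells and left out CD45+, doublet and dye-positive events.

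The matrix joins the samples under barcode suffixes 2 and 1, called library 2 and library 1 here, and nothing in the labels or files ties a suffix to EAE or to healthy mice. Every difference below is therefore between these libraries, with no replicate and no test, and intervals are exact 95% intervals that cover counting error only. Transcripts were counted by unique molecular identifier (UMI), and a barcode was kept as a cell when it held 200 or more genes and no more than 20% mitochondrial UMIs. Library 2 kept 1922 cells with a median of 9782.5 UMIs, and library 1 kept 3406 cells with a median of 7334 UMIs. The label of lymphatic endothelium did not match the transcripts. At least 5 of 7 microglia markers were detected in 1624 cells of library 2 and in 3229 cells of library 1, whereas the lymphatic markers together reached 6.90 CPM in library 2 and 28.3 CPM in library 1. CPM values are a gene's UMI counts scaled to all UMIs of the same cells. The libraries shared 8 barcodes, of which 7 were kept in both. Without the kept cells of any shared barcode, the fold of the family sum given below was 13.8 in place of 13.7.

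The members lie in 2 groups of neighbouring genes, Gbp2, Gbp3, Gbp5 and Gbp7 on chromosome 3 and Gbp4, Gbp6, Gbp8 and Gbp9 on chromosome 5, per the GENCODE M21 annotation. The stretches just before the transcription starts of the chromosome 3 members are shown because interferon-responsive genes are known to carry short factor-binding words there. The windows are RefSeq sequence of mouse build GRCm38.p6, plus strand, from 250 bases before to 50 bases after the annotated start. They span chr3:142620413-142620712 for Gbp2, chr3:142559794-142560093 for Gbp3, chr3:142496684-142496983 for Gbp5 and chr3:142530086-142530385 for Gbp7. Capitals mark matches, on either strand, to GAAA followed by any 2 bases and a second GAAA, a spacing bound by interferon regulatory factors, and to TTCNNNGAA, the core word of gamma-activated sites.
Gbp2: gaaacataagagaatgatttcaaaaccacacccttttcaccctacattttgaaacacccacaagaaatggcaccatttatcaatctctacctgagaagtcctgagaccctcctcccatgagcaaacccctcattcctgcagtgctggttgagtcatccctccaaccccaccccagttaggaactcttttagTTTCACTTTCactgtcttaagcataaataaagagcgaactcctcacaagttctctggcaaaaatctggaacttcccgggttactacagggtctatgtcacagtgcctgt
Gbp3: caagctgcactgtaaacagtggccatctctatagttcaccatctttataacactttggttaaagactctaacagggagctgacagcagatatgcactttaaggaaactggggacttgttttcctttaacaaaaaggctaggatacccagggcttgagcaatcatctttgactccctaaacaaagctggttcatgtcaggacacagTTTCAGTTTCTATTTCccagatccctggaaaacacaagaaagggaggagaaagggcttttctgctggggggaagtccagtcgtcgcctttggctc
Gbp5: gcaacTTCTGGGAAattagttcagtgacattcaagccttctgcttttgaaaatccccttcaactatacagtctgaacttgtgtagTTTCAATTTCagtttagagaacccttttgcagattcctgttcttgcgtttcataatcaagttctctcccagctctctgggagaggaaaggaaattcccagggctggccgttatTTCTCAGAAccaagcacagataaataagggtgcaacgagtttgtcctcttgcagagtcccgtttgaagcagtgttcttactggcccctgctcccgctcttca
Gbp7: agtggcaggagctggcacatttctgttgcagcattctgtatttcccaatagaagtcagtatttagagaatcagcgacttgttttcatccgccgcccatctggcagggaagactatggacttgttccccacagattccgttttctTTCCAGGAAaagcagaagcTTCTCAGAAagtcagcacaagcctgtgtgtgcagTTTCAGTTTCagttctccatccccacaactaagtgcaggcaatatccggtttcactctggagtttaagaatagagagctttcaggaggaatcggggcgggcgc
The Gbp2 window held 1 match of the paired GAAA word, which began at position -59 from the start and read TTTCACTTTC on the plus strand. The Gbp3 window held 2 overlapping matches, TTTCAGTTTC at -45 and TTTCTATTTC at -39. Gbp5 had 1 such match, TTTCAATTTC at -165, and 2 of TTCNNNGAA, TTCTGGGAA at -245 and TTCTCAGAA at -52. Gbp7 had TTTCAGTTTC at -53, and the gamma-activated words TTCCAGGAA at -106 and TTCTCAGAA at -87. A second Gbp3 window, chr3:142560106-142560405, held neither word. The paired GAAA word was therefore in 4 of 5 member windows, against 3.44% of 32851 windows of all genes, and TTCNNNGAA in 2 of 5, against 8.30%. These matches describe the letters only. Gbp4, Gbp6, Gbp8 and Gbp9 had no window in the table used.

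All 8 members were higher in library 2 than in library 1, by 5.03-fold to 61.9-fold. Their summed level was 1395 CPM in library 2 (interval 1379 to 1412) and 102 CPM in library 1 (98.0 to 106), a fold of 13.7 (13.2 to 14.3). Of the 13891 genes with at least 20 UMIs, 14.2% were more than 2-fold higher in library 2, and all 8 members were. More than 4-fold higher were 5.99% of the genes and again all 8 members, more than 8-fold higher 2.25% and 5 members, and more than 16-fold higher 1.11% and 4 members. The median fold was 21.9 over the members and 1.03 over all genes tested, and no member was more than 2-fold lower, against 8.37% of the genes.

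Among the chromosome 3 members, Gbp2, which in the mouse is prenylated and coats the vacuole of Toxoplasma, stood at 490 CPM in library 2 and 15.9 CPM in library 1, a fold of 30.8 (27.9 to 34.0). Gbp5, which in the mouse promotes assembly of the NLRP3 inflammasome, stood at 176 CPM in library 2 and 13.5 CPM in library 1, a fold of 13.03 (11.7 to 14.6). Gbp7, which in the mouse takes part in defence against mycobacteria and Listeria and binds a part of the phagocyte oxidase, stood at 329 CPM in library 2 and 43.3 CPM in library 1, a fold of 7.60 (7.13 to 8.10). The fold of Gbp7 was thus well under that of Gbp2, with intervals far apart. Gbp3 had 2229 UMIs in library 2 and 386 in library 1, a fold of 7.34 (6.58 to 8.19), which overlapped that of Gbp7. The 4 chromosome 3 members together were 12.6-fold higher (12.1 to 13.2).

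The chromosome 5 members together were 20.5-fold higher in library 2 (18.4 to 22.8), from 291 CPM in library 2 and 14.2 CPM in library 1. Gbp4 had 2188 UMIs in library 2 and 49 in library 1, a fold of 56.7 (42.8 to 76.9). Gbp8 had 2047 UMIs in library 2 and 42 in library 1, a fold of 61.9 (45.6 to 86.2). These were the 2 highest folds of the family, and their intervals overlapped. Gbp6, known in the mouse from resistance to intracellular bacteria, had 689 UMIs in library 2 and 28 in library 1, a fold of 31.3 (21.4 to 47.4). Gbp9 had 978 UMIs in library 2 and 247 in library 1, and its fold of 5.03 (4.37 to 5.81) was the lowest of the family. The high and the low folds therefore stood within both chromosome groups.

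The folds of Gbp2 and Gbp4 depended on a few cells. Without the 1% of cells with most family UMIs in each library, the fold of Gbp2 was 67.9 and that of Gbp4 was 437, because those cells held much of the library 1 counts. Gbp6 stood at 55.4 and Gbp7 at 8.15 in that setting. As a mean of per-cell CPM, the fold of Gbp4 was 111. With cells thinned to 1000 UMIs before summing, the folds were 118 for Gbp4, 54.0 for Gbp6, 183 for Gbp8, 9.12 for Gbp9 and 8.59 for Gbp5.

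**Figure D1:**
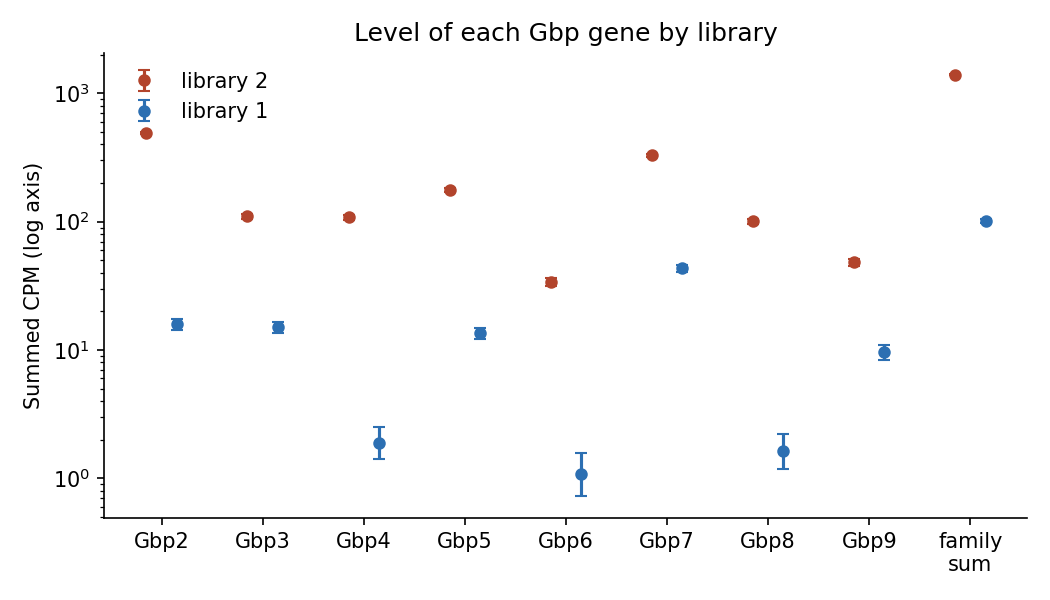
Level of each Gbp gene and of the family sum in library 2 (left point of each pair) and library 1 (right point), as summed CPM on a log axis with exact Poisson 95% intervals. Every library 2 point lies above its library 1 point, with the family sum at 1395 and 102 CPM.

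Reads of close copies limit how finely some members can be told apart, above all those of chromosome 5. Of the 50-base windows in the last 500 bases of GENCODE M21 transcripts, 77.8% of those of Gbp6 also occur in Gbp10, Gbp9 or Gm43302, and up to 37.7% of those of Gbp4, 14.6% of Gbp8, 7.54% of Gbp9 and 10.7% of Gbp3 occur in another gene of the family. For Gbp2 and Gbp7 none of their own windows did, but the shared windows of Gbp3 occur in transcripts of Gbp7. For Gbp5, 5.99% of windows occur in genes outside the family. In the annotation Gbp4, Gbp8 and Gbp9 also overlap each other on the same strand. How such reads were counted was not stated, so the single values of Gbp4, Gbp6, Gbp8 and Gbp9 are uncertain. Reads from the sequence common to Gbp3 and Gbp7 could likewise be divided either way between them. The family sum does not depend on how reads are divided within it, although it would miss reads left uncounted or counted for genes outside it. Gm43302 had 0 UMIs in both libraries. Gbp10 had 25 UMIs in library 2 and 4 in library 1. Gbp2b, formerly named Gbp1 in the mouse, had 118 UMIs in library 2 and 4 in library 1, a fold of 37.5 (14.3 to 140).

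The make-up of the family differed between the libraries. Gbp2 gave 35.1% of the family's UMIs in library 2 and 15.6% in library 1. Gbp7 gave 23.6% in library 2 and 42.5% in library 1, Gbp3 gave 7.88% in library 2 and 14.7% in library 1, and Gbp9 gave 3.46% in library 2 and 9.41% in library 1. Gbp4 gave 7.73% in library 2 and 1.87% in library 1, and Gbp8 gave 7.23% in library 2 and 1.60% in library 1. Gbp5 took 12.6% of family UMIs in library 2 and 13.2% in library 1. Levels of different genes are not ranked here, because UMI counts were not scaled to length or capture.

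Several measures of cell state also differed between the libraries. The 15 dissociation and immediate early genes, such as Jun and Fos, reached 18516 CPM in total in library 2, against 51331 CPM in library 1. The 7 microglia markers reached 9052 CPM in library 2, against 16321 CPM in library 1, and the median mitochondrial share was 3.74% in library 2 and 1.54% in library 1. Monocyte markers reached 75.3 CPM in library 2, against 11.8 CPM in library 1. The part of all these in the difference was not tested. Within cells with at least 5 microglia markers the family was at 1424 CPM in library 2 and 101 CPM in library 1, a fold of 14.1. Cells were also ordered within each library by their share of dissociation genes and split into 3 groups of equal size. In library 2 the family had 1390, 1419 and 1374 CPM in the lowest, middle and highest group, and in library 1 it had 126, 97.1 and 84.2 CPM. The median dissociation share was 2.96% in the highest group of library 2 and 2.82% in the lowest group of library 1, and there the family levels were 1374 and 126 CPM. In library 1 the highest group over the lowest was 0.665-fold (0.604 to 0.732) for the family, 0.271-fold (0.203 to 0.360) for Gbp2 and 0.848-fold (0.732 to 0.982) for Gbp7. In library 2 the same ratio was 0.988 for the family (0.959 to 1.02) and 1.45 for Gbp8 (1.29 to 1.62). The 34 library 1 cells with most family UMIs held 57.3% of the Gbp2 UMIs there. How they fell over the dissociation groups was not examined, and the intervals do not cover such clumping.

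Nearly every cell of library 2 carried Gbp transcripts. The median cell held 12 family UMIs in library 2 and 0 in library 1. In library 2, 1146 cells (59.6%) held at least 10 family UMIs, against 20 cells (0.587%) of library 1. No family UMI was seen in 65 library 2 cells (3.38%), against 2055 library 1 cells (60.3%). At full depth a family UMI was present in 96.6% of library 2 cells and 39.7% of library 1 cells. With every cell thinned to 1000 UMIs, which left out 15 cells of library 2 and 87 of library 1, the shares were 67.9% in library 2 (65.8% to 70.0%) and 8.29% in library 1 (7.37% to 9.28%).

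**Figure D2:**
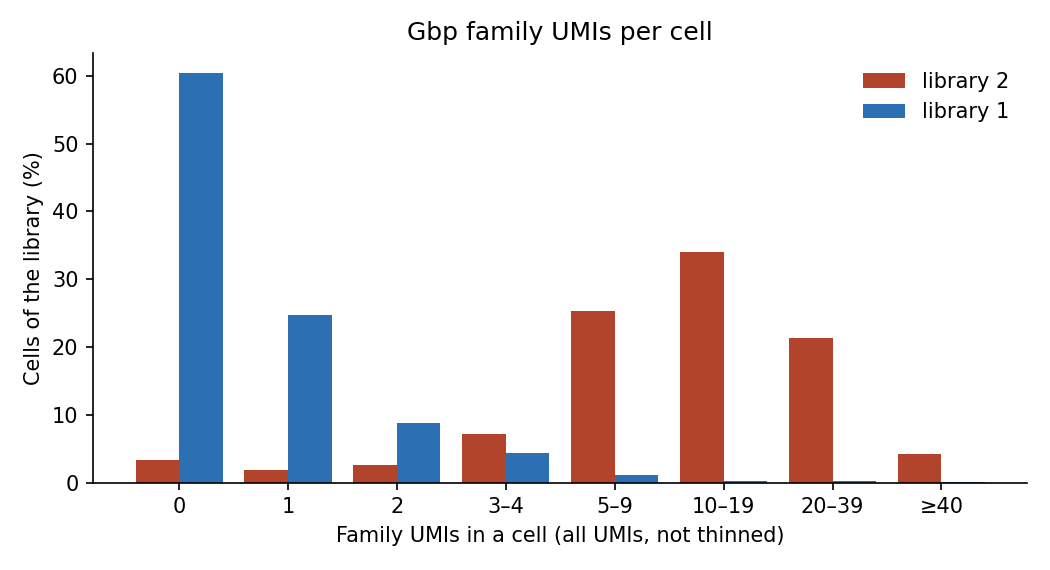
Share of the cells of each library (vertical axis, percent) by the number of Gbp family UMIs in the cell (horizontal axis, all UMIs, not thinned), library 2 in the left bar and library 1 in the right bar of each pair. Library 2 peaks at 10 to 19 UMIs with 34.0% of its cells, and library 1 at 0 UMIs with 60.3%.

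Olfactory sensory neurons served as a measure of free RNA, since their transcriptome is remote from that of microglia. In the sensory neuron-like cluster of library 2 (37 cells, median 11227 UMIs) the 8 members had 4 UMIs in all, 8.47 CPM (2.31 to 21.7), and 4 cells had 1 (10.8%). After thinning, 0 of 37 such cells had a family UMI, with an exact binomial upper limit of 9.49%. The share of 67.9% in library 2 lay above that limit. The limit rests on 37 barcodes of 1 cluster, and the part of free RNA in the share was not tested. Library 1 had 7 such cells with 0 family UMIs, and 3 counts would have made 31.0 CPM there, so its thinned share of 8.29% could not be set against a background of useful size.

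By single member, thinned shares were 33.5% in library 2 and 1.27% in library 1 for Gbp2, 25.2% in library 2 and 3.59% in library 1 for Gbp7, and 13.6% in library 2 and 1.72% in library 1 for Gbp5. At full depth Gbp2 was found in 86.6% of library 2 cells and 5.46% of library 1 cells. Gbp7 was found in 83.7% of cells in library 2 and 22.7% in library 1, and Gbp4 in 53.0% in library 2 and 0.734% in library 1. In cells thinned to 2000 UMIs, the median number of members detected was 2 in library 2 and 0 in library 1. At least 1 member was missing from every cell at that depth, and 5 cells of library 2 had 7 of the 8.

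The few library 1 cells with many Gbp UMIs held a large part of the counts of some members and a small part of those of others. Gbp2 reached 37 UMIs in 1 cell of library 1, and 16 cells with at least 5 Gbp2 UMIs held 205 of its 410 UMIs there. For Gbp7, cells with at least 5 UMIs held 5.65%. To compare members, each cell was ranked by the summed UMIs of the other 7 genes, and the top 10% of cells were asked for their share of the gene left out. In library 2 these cells held between 19.8% (Gbp7) and 32.2% (Gbp5) of the gene's UMIs, beside 15.4% to 16.3% of all UMIs. In library 1, where they held 13.3% to 13.5% of all UMIs, the values parted: 95.9% of Gbp4 UMIs (47 of 49), 75.0% of Gbp6, 65.4% of Gbp2 and 54.8% of Gbp8, against 31.9% of Gbp3, 33.7% of Gbp5, 22.8% of Gbp7 and 19.4% of Gbp9. The top 1%, 34 cells of library 1, held 53.4% of Gbp2 (219 of 410 UMIs) and 83.7% of Gbp4, but 7.17% of Gbp7 and 8.10% of Gbp9. These cells held 2.19% to 2.33% of all UMIs, so their shares of Gbp7 and Gbp9 were also above their share of all UMIs. In library 1, then, Gbp7 and Gbp9 were spread over many cells, and Gbp2 and Gbp4 were packed into few.

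Depth moves with this ranking, since a deep cell has more UMIs of every gene. With cells thinned to 2000 UMIs, an alternative added after the data had been seen, the top 10% of library 1 cells held 41.9% of Gbp2, 21.7% of Gbp5, 19.6% of Gbp3, 18.6% of Gbp7 and 11.7% of Gbp9. At that depth Gbp4 was left in 5 library 1 cells, Gbp6 in 6 and Gbp8 in 11, too few to read a share from. In library 2 the thinned values lay between 13.9% for Gbp7 and 21.5% for Gbp6. Of the 25 cells of library 1 with a Gbp4 UMI at full depth, 20 (80.0%) also had Gbp2, a gene that shares no 50-base window with it, against 5.46% of all cells. Their median depth was 12805 UMIs. Of the 772 cells with a Gbp7 UMI, 79 (10.2%) had Gbp2, at a median depth of 7536 UMIs.

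**Figure D3:**
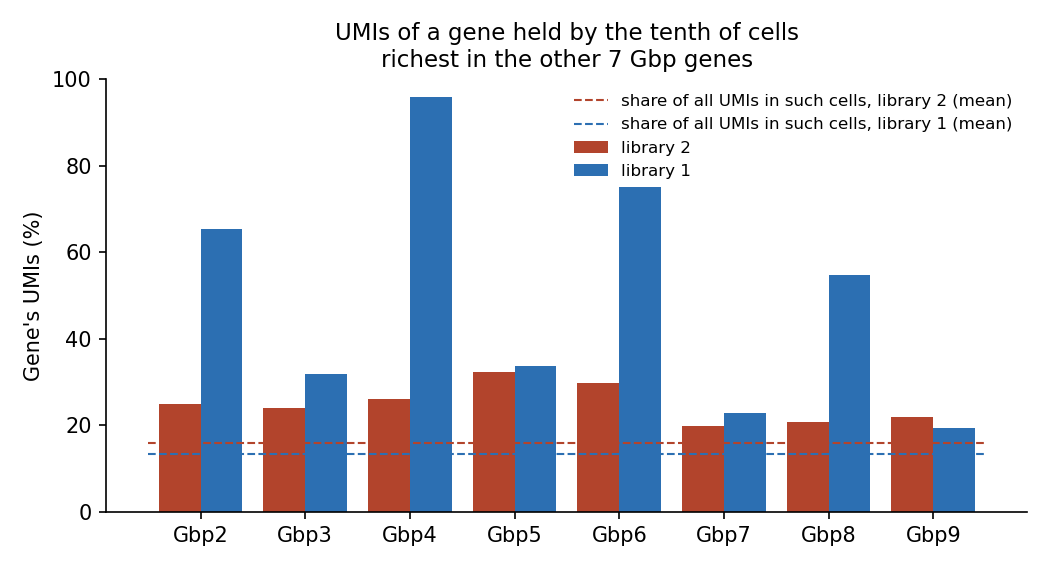
Share of each gene's UMIs (percent) held by the 10% of cells with most UMIs of the other 7 Gbp genes, library 2 in the left bar and library 1 in the right bar; dashed lines give the share of all UMIs in such cells. In library 1 the bars of Gbp4 (95.9%), Gbp6 (75.0%), Gbp2 (65.4%) and Gbp8 (54.8%) stand above the rest.

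Cells with more Gbp UMIs had more transcripts of other interferon-induced genes in both libraries. Cells thinned to 2000 UMIs were put in classes of 0, 1 to 2 and 3 or more family UMIs, which are ranges of a count and not cell types. They held 262, 735 and 898 cells of library 2, and 2758, 480 and 21 cells of library 1. The 20 genes of the type I interferon response list, such as Isg15 and Bst2, had 2302, 3350 and 4331 CPM over these classes in library 2, against 386, 868 and 2956 CPM in library 1. The immunity-related GTPases, a second family of interferon-induced GTPases of the mouse, had 462, 761 and 1102 CPM in library 2, against 67.7, 146 and 819 CPM in library 1.

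The 21 library 1 cells with 3 or more family UMIs were thus at 2956 CPM for the type I list, near the 3350 CPM of the middle class of library 2. Their Cxcl9, the gene of a chemokine induced by interferon gamma, reached 1301 CPM (297 UMIs), against 2.28 CPM in library 1 cells with none. This gene was chosen after its values were seen. How its UMIs were divided among the 21 cells was not examined. In the clusters described below, the 4 library 1 cells of cluster 14 stood at 2258 CPM of Cxcl9, and the 6 of cluster 13 at 1080 CPM. Border macrophage markers stood at 86.4, 81.3 and 271 CPM over the library 1 classes, dividing cell markers at 30.7, 107 and 390 CPM, monocyte markers at 9.76, 10.6 and 92.0 CPM (21 UMIs in the last), microglia markers at 16459, 16184 and 9310 CPM, and the dissociation genes at 51953, 49712 and 35010 CPM. Median depth was 7411.5, 7356 and 9295 UMIs. In library 2, monocyte markers stood at 50.7, 66.4 and 89.3 CPM. The part of these in the result was not tested. In the class of library 2 with no family UMI, olfactory sensory neuron markers stood at 3804 CPM, against 25.9 and 27.5 CPM in the others.

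Ordered the other way, by the share of type I response genes in each cell, the family had 1025, 1366 and 1768 CPM in the lowest, middle and highest group of library 2, against 66.1, 72.8 and 163 CPM in those of library 1. The highest group over the lowest was 1.72-fold (1.67 to 1.78) in library 2 and 2.46-fold (2.23 to 2.72) in library 1. In library 2 the member ratios ran from 1.27 for Gbp8 to 2.23 for Gbp6. In library 1 they ran wider. Gbp2 was 8.96-fold higher (6.28 to 13.2; 335 and 34 UMIs), Gbp3 3.097-fold, Gbp5 2.10-fold, Gbp8 5.45-fold (2.10 to 18.0), Gbp9 1.63-fold and Gbp7 1.56-fold (1.35 to 1.81). Gbp4 had 48 UMIs in the highest and 0 in the lowest group, at least 14.5-fold higher when the lowest is set at 3 counts, and Gbp6 had 26 and 0 UMIs, at least 7.88-fold higher. From lowest to highest group of library 1, Gbp2 stood at 4.20, 4.69 and 37.6 CPM. The 34 library 1 cells with most family UMIs held 235 of the 410 Gbp2 UMIs and 43 of the 49 Gbp4 UMIs. How these cells fell over the groups was not examined, and the intervals do not cover such clumping.

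**Figure D4:**
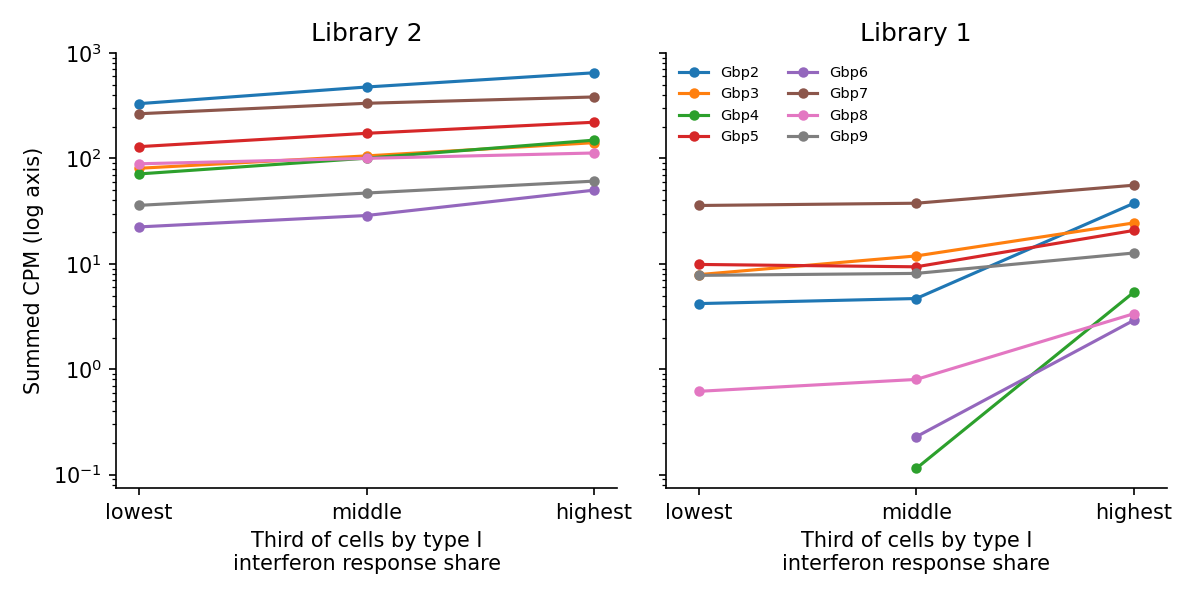
Level of each member (summed CPM, log axis) in cells of library 2 (left panel) and library 1 (right panel), split into 3 groups of equal size by the share of type I interferon response genes. Gbp2 climbs from the middle to the highest group of library 1 more steeply than Gbp7; Gbp4 and Gbp6, with 0 UMIs in the lowest group of library 1, have no point there.

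The 20 interferon gamma responsive genes gave a similar order, with the family at 1123, 1395 and 1644 CPM in library 2, against 73.0, 83.3 and 146 CPM in library 1. The ratio of the highest to the lowest group in library 1 was 8.82 for Gbp2 (6.15 to 13.03) and 1.08 for Gbp7 (0.935 to 1.25), whose interval included 1. In library 2 it was 1.66 for Gbp2 (1.58 to 1.74), 1.85 for Gbp5 (1.70 to 2.02) and 1.31 for Gbp7 (1.23 to 1.40). From lowest to highest group of library 1, Gbp2 stood at 4.06, 6.27 and 35.8 CPM. The few cells that held much of Gbp2 in library 1 weigh on that ratio too, beyond what its interval covers. When cells were ordered by microglia markers instead, the family had 1420, 1424 and 1335 CPM in library 2, against 144, 78.4 and 80.7 CPM in library 1.

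The family was high in almost every cluster of library 2 and low in every cluster of library 1 with at least 30 cells. Clusters were made without the members and without the pathway genes. Most were held by 1 library, so that cluster and library cannot be told apart for them. In library 2 the family was lowest in the sensory neuron-like cluster 11, at 8.47 CPM. Next came cluster 6 at 1169 CPM (1075 to 1270), unnamed and led by haemoglobin and collagen genes with 3 blood endothelium markers among its 50 highest folds, cluster 12 at 1187 CPM (1153 to 1221), microglia-like and led by Apoc1, Apoe and Saa3, and cluster 10 at 1259 CPM (1164 to 1360), olfactory ensheathing glia-like and led by Apod, though 32 of its 59 barcodes also held at least 5 microglia markers and gave 487 of its 649 family UMIs. These 3 did not differ beyond their counting intervals. Cluster 13, microglia-like and led by the MHC class II genes H2-Eb1, H2-Aa and H2-Ab1, stood at 1414 CPM (1389 to 1440). Leading genes are by fold against all other cells of both libraries, so they do not set a cluster apart within library 2. H2-Ab1 stood at 2345 CPM in cluster 13 and 2631 CPM in cluster 14 of library 2. The dividing cluster 15 at 1639 CPM (1568 to 1713) and cluster 14, led by the chemokine genes Cxcl9, Cxcl13 and Ccl5, at 1655 CPM (1620 to 1690) were the highest and overlapped.

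Members did not all follow the sum across the microglia-like clusters of library 2. Gbp2 stood at 371 CPM in cluster 12, 450 CPM in cluster 13, 656 CPM in cluster 14 and 683 CPM in cluster 15. Gbp5 ran likewise from 119 CPM in cluster 12 to 227 CPM in cluster 14. Gbp4 lay between 110 and 116 CPM in all 4 of them, and Gbp8 was highest in cluster 13, at 120 CPM, against 92.6 to 97.8 CPM in the other 3. Its interval in cluster 13 (113 to 127) overlapped that of cluster 15 (80.1 to 116) but not those of clusters 12 and 14. The single values of Gbp4 and Gbp8 are uncertain because of their shared sequence. Gbp8 was also among the 10 highest folds of cluster 13, but those are against all other cells of both libraries. The gap between the libraries therefore enters that rank. Gbp2 made up 31.2% of family UMIs in cluster 12 and 41.7% in cluster 15.

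In library 1 the family lay between 81.6 and 94.6 CPM in the 6 microglia-like clusters 1, 2, 3, 4, 7 and 8. The epithelium-like cluster 5 stood at 93.2 CPM, from 41 family UMIs that lay in 3 of its 64 cells, and 0 of its 24 thinned cells had one. The ensheathing glia-like cluster 10 stood at 106 CPM (67.6 to 157), with 22 of its 24 family UMIs in barcodes with at least 5 microglia markers. The border macrophage-like cluster 9, led by Pf4 and Ms4a7, stood at 186 CPM (149 to 229), and the unnamed cluster 6 at 221 CPM (177 to 273); these 2 overlapped. In library 1, cluster 6 held blood endothelium markers at 1424 CPM and lymphatic endothelium markers at 781 CPM beside microglia markers at 7845 CPM, and Ccl21a, a lymphatic marker, was among its 10 highest folds over both libraries. Their part in its family level was not tested. The highest cluster of library 1 was thus below every cluster of library 2 except the neuron-like one. A handful of library 1 cells fell in clusters held mostly by library 2. The 6 in cluster 13 stood at 1429 CPM (1143 to 1765), the 4 in cluster 14 at 1175 CPM (980 to 1398), the 4 in cluster 12 at 582 CPM (373 to 866) and the 21 in the dividing cluster 15 at 320 CPM (259 to 390).

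**Figure D5:**
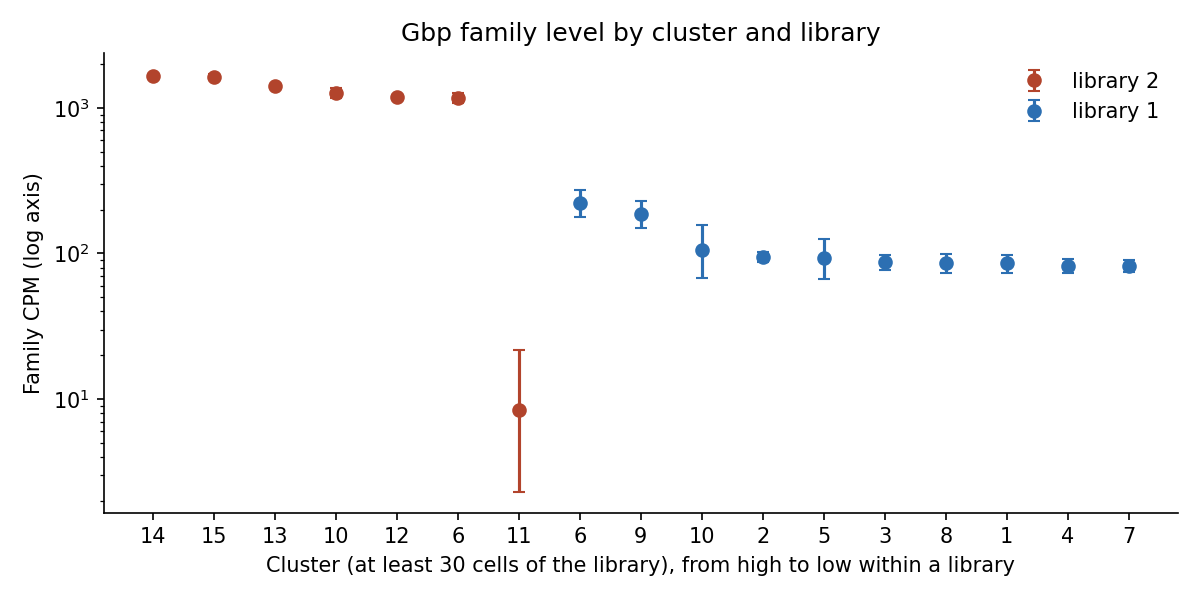
Gbp family level (summed CPM, log axis, exact Poisson 95% intervals) in each cluster with at least 30 cells of a library, library 2 on the left and library 1 on the right, ordered from high to low. Library 2 clusters lie at 1169 to 1655 CPM apart from the neuron-like cluster 11 at 8.47 CPM, and library 1 clusters at 81.6 to 221 CPM.

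Ensheathing glia, which wrap olfactory axons, allowed a look at the family outside microglia. In cluster 10 of library 2, 23 cells had at most 2 microglia markers, and their microglia marker level was 3.72% of that of cells with at least 5. Their median depth was 4015 UMIs, against 10001.5 UMIs in library 2 cells with at least 5, and the part of depth in this selection was not tested. Their family level was 1117 CPM (925 to 1338; 118 UMIs), against 1424 CPM in library 2 cells with at least 5 microglia markers, a ratio of 0.784 (0.649 to 0.940). The matching 15 cells of library 1 had 2 family UMIs, 38.3 CPM (4.63 to 138). In the library 2 glia Gbp2 stood at 407 CPM and Gbp7 at 312 CPM, against 492 and 342 CPM in the microglia marker-rich cells, with ratio intervals that included 1. Gbp3 was higher in the glia, at 208 CPM (22 UMIs) against 111 CPM, a ratio of 1.88 (1.17 to 2.85). Gbp5 was lower, at 18.9 CPM (2 UMIs) against 179 CPM, a ratio of 0.106 (0.0128 to 0.383). Gbp8 had 0 UMIs in the glia and 105 CPM in the marker-rich cells, at least 3.70-fold lower with the glia set at 3 counts.

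The genes whose level followed the family sum most closely were sought over finer groups of at least 30 cells, with Pearson's r of log2(CPM + 10) over genes with at least 200 UMIs. Over 38 groups of both libraries, among 9573 genes, the non-members with the highest r included H2-T22 (0.981), Tap1 (0.977), Lgals3bp, Rnf213, Xaf1, Sp100, H2-Q7, Zbp1 and Parp9 (0.964). The gap between the libraries enters these values. Over the 15 groups of library 2 alone, among 7893 genes and where the low neuron-like group weighs heavily, they were H2-Q7 (0.993), Slfn2, Igsf6, Lgals9, Ifi204, Spi1, Ncf4, Ctsc, Tap2 and Tap1 (0.988). Irf1, the gene of an early interferon-induced factor, had an r of 0.457 over both libraries, 0.885 over library 2 and -0.29 over the 23 groups of library 1. In library 1 the family spanned 52.6 to 237 CPM, and the highest r among 8182 genes was that of Ifitm2 (0.823). The groups share libraries and depth, so r is a description only.

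Of the inducing pathway, the ligand gene Ifng had 1 UMI in library 2 and 0 in library 1, and T or NK cell markers had 22 UMIs in library 2 and 14 in library 1, with Ncr1 at 0 in both. Over all genes, 14.2% were more than 2-fold higher in library 2 and 8.37% more than 2-fold lower. The counts of the signalling lists that follow lie too near those shares to be read as a result about the lists. Among the 10 interferon gamma signalling genes tested, none was more than 2-fold lower in library 2. The feedback inhibitor gene Socs1 stood at 66.0 CPM in library 2 and 24.0 CPM in library 1 (2.75-fold). The receptor gene Ifngr1 stood at 560 CPM in library 2 and 652 CPM in library 1, the kinase gene Jak1 at 100 CPM in library 2 and 184 CPM in library 1, and Irf1 at 313 CPM in library 2 and 234 CPM in library 1 (1.33-fold). Of 7 type I interferon signalling genes, 2 were more than 2-fold higher, Irf7 (17.5-fold) and Stat2 (8.13-fold), and 1 was more than 2-fold lower. That one was the ligand gene Ifnb1, named after its values were seen, with 8 UMIs in library 2 and 57 in library 1.

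Other interferon-induced genes were higher in library 2 as a whole list, beside 14.2% of all genes more than 2-fold higher. All 10 immunity-related GTPase genes tested were more than 2-fold higher in library 2, with Iigp1 at 233 CPM in library 2 and 5.78 CPM in library 1 (40.3-fold), Ifi47 at 28.4-fold and Irgm1 at 7.44-fold. All 20 type I response genes were, with a median of 10.9-fold, and 16 of 18 interferon gamma responsive genes, with a median of 13.01-fold. The median fold of the 8 Gbp genes was 21.9. The lists were chosen with earlier results of these data known, so these counts are descriptions.

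Genes for the machinery that Gbp proteins work with were also counted, against 14.2% of all genes more than 2-fold higher and 8.37% more than 2-fold lower. For lists of this size the counts lie too near those shares to be read as a result about the lists. None of the 10 inflammasome genes tested was more than 2-fold higher in library 2, and 1 was more than 2-fold lower. The sensor gene Nlrp3 stood at 72.6 CPM in library 2 and 245 CPM in library 1, and Casp4, the mouse caspase-11 gene, at 102 CPM in library 2 and 164 CPM in library 1. The adaptor gene Pycard stood at 553 CPM in library 2 and 277 CPM in library 1, and the pore gene Gsdmd at 156 CPM in library 2 and 102 CPM in library 1. None of 6 genes for prenylation and CAAX processing passed 2-fold in either direction, with Pggt1b, a subunit of the enzyme that adds geranylgeranyl anchors, at 20.2 CPM in library 2 and 22.6 CPM in library 1. The ATG8 conjugation list of 13 genes also holds ATG8 homologues and autophagy receptors. None of the 13 was more than 2-fold higher and 2 were more than 2-fold lower, neither of them a gene of the conjugating proteins. These were the receptor gene Sqstm1 at 137 CPM in library 2 and 509 CPM in library 1, and the ATG8 homologue gene Map1lc3a at 82.7 CPM in library 2 and 210 CPM in library 1.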

How the data were processed

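Single-cell RNA counts of 2 pooled samples were analysed. The authors deposited 1 matrix of raw UMI counts, 31053 genes by 6272 barcodes and 47541728 UMIs, written by Cell Ranger 3.1.0, per the file headers. Of bcl2fastq and UMI-tools, which the submitters' processing notes list, no version is given, nor of genome build and annotation. From the deposited barcode and feature lists (identifiers, no measurements) the suffix gave the library, and 30934 of 31053 gene identifiers matched GENCODE M21.

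All further values were computed here from the counts with Python 3.11.15, scanpy 1.11.5, scipy 1.17.1, numpy 2.4.6, pandas 2.3.3 and igraph 0.11.9. Cells needed 200 genes or more and no more than 20% mitochondrial UMIs, so 512 barcodes were dropped from library 2 and 432 from library 1. No doublet caller was run, so doublets may remain. UMIs were summed by library and group and divided by the total (CPM), with exact Poisson intervals, and folds of library 2 over library 1 have exact conditional binomial intervals. The fold code was tested on simulated data. Shares of cells have exact binomial intervals. A count of 0 was bounded with 3 counts per group of cells. UMIs count captured molecules, so intervals cover counting error only. Clusters came from 2000 variable genes without pathway genes, 30 principal components, 15 neighbours and the Leiden method at resolution 1, and likeness used resolution 3. A cluster took a name from at least 3 of a type's markers among its 50 highest folds, or was microglia-like with at least 5 of 7 markers at 100 CPM, unless another type had more markers than its own among its 10 highest folds, which left cluster 6 unnamed.

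The members, lists and markers were chosen with earlier results of these data known. Genes named are the 8 members; per list, examples were drawn from the 4 genes of highest CPM and the 4 of largest absolute log2 ratio (pseudocount 10 CPM), given 20 UMIs or more; the 10 most alike; and Ifng, Irf1, Gbp2b and Gbp10, while 1 gene of the rule is not reported here. Gbp11 had no row of that symbol in the feature list. Exceptions are marked as chosen after their values were seen. Genes that lead a cluster or exemplify a list are also named. Alternatives varied the cell filter, cells counted, totals, depth, weighting, pseudocount and clustering.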

Additional observations from a re-analysis of the deposited data

Results flagged for a closer look

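Gbp transcripts were also present in the barcodes that the cell filter left out. The 512 left-out barcodes of library 2 held 336 family UMIs, or 339 CPM, and the 432 of library 1 held 22 family UMIs, or 43.7 CPM. Median depth there was 1514 UMIs in library 2 and 817 UMIs in library 1, and the median mitochondrial share was 51.3% in library 2 and 63.9% in library 1. These barcodes entered none of the comparisons above except the alternative without a cell filter.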

How the results depend on the processing

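All 8 members stayed more than 2-fold higher in library 2 under every alternative run, and no result changed sign. The family fold (13.7) was 16.6 without the 1% of cells with most family UMIs, 14.9 with mitochondrial, ribosomal protein and haemoglobin genes left out of the totals, 14.5 as a mean of per-cell CPM and 14.6 without cells over 3 times the median UMIs. The last and the removal of shared barcodes were added after the data had been seen. The share of cells with a family UMI (67.9% in library 2, 8.29% in library 1) was 86.2% and 15.4% at 2000 UMIs, 96.6% and 39.7% without thinning, 37.2% and 0.813% for at least 2 UMIs, and 58.7% in library 2 without a cell filter. With cells at 1000 UMIs, the 10% of cells with most held 31.7% of family UMIs in library 2. In library 1 they held 100%, as they must when 8.29% of cells have any. At 2000 UMIs they held 27.7% in library 2 and 71.9% in library 1, at full depth 28.6% in library 2 and 55.2% in library 1, and without a cell filter 35.8% in library 2. The highest cluster of library 2 (1655 CPM) was 1751 CPM at resolution 2 and 2164 CPM with each library clustered on its own. In library 1 the highest (221 CPM) was 399 CPM on its own, and the lowest (81.6 CPM) was 45.6 CPM at resolution 2 and 70.1 CPM on its own. The cause of these shifts was not tested. With a pseudocount of 1 CPM all 8 log2 ratios were larger. No paired analysis was possible because each group is 1 pool and the suffixes carry no replicate number. Depth limits Gbp4, Gbp6 and Gbp8 in library 1, which had 49, 28 and 42 UMIs.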
